A study of Homo sapiens with 8 samples.

Results

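Gene-level expression in the input RNA of BEAS-2B cells was compared between formaldehyde and clean air, using the 4 input libraries of a series of 8. The groups were FA_IN, from cells exposed to 1 ppm formaldehyde in humidified air for 2 h, and CA_IN, from cells exposed to clean air for the same time. Both groups then recovered for 6 h, and each held 2 libraries. The study calls them biological replicates, and p-values here measure only the spread between these libraries. Isoform counts were summed for each gene, and a gene was kept when its rounded sum reached 10 in at least 2 of the 4 libraries. This left 17994 genes of the 58735 in the files, of which 34059 had a rounded count in 1 or more of the 4 libraries. The other 4 libraries held RNA pulled down with an antibody against 8-oxoguanosine (8-oxoG), an oxidized base, from portions of the same RNA.

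BEAS-2B is an established line of virus-immortalized human bronchial epithelium, so all libraries came from a single line and no primary airway tissue was sampled. Cells were grown under medium on inserts, and the upper medium was taken off shortly before exposure, so that the cell surface met the gas directly at an air-liquid interface. Formaldehyde is a reactive one-carbon aldehyde that couples to proteins and nucleic acids and forms crosslinks. In cells it is cleared mainly after it joins glutathione, by the alcohol dehydrogenase ADH5 followed by the esterase ESD, and damaged proteins are handled by heat shock chaperones and the ubiquitin-proteasome system. Cells under such stress also raise transcription factors of the integrated stress response.

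Depth ran from 26152651 expected counts in FA_IN replicate 1 to 45144392 in CA_IN replicate 1. Gene counts were scaled with edgeR's TMM method and are given as CPM, the count of a gene scaled to a common library total. The coefficient of variation between replicates was 0.137. Correlations of log CPM across genes were 0.988 within CA_IN, 0.987 within FA_IN and between 0.984 and 0.991 for libraries of different groups. The first principal component of the 500 most variable genes held 41.6% of the variance and set FA_IN replicate 1, at 24.2, apart from the other 3 libraries, which lay between -12.2 and -2.02. All 18 bronchial epithelial line markers were tested, with a summed level of 7657 to 8461 CPM in CA_IN and 8448 to 8949 CPM in FA_IN. Of 15 ciliated, secretory and alveolar markers 5 passed the filter, with a summed level of 42.7 to 54.2 CPM in CA_IN and 48.1 to 52.9 CPM in FA_IN, most of it from TUBA1A, a tubulin of many cell types. Of 14 blood, endothelial and fibroblast markers 5 passed, with a summed level of 15.1 to 15.3 CPM in CA_IN and 12.98 to 16.7 CPM in FA_IN. SFTPA1, a surfactant protein of alveolar cells, and HBB, a globin of red blood cells, had no count in any of the 4 libraries.

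No gene passed an adjusted p of 0.05 in edgeR's quasi-likelihood test (0 of 17994, or 0.0%), and the smallest adjusted p was 0.173. At an unadjusted p under 0.05 there were 165 genes higher in FA_IN (0.917% of those tested) and 498 lower (2.77%), and DESeq2 called 3 genes on the same libraries (BIVM-ERCC5, INO80B-WBP1 and ENSG00000277067), with 31 higher and 437 lower at an unadjusted p under 0.05. The values below therefore describe levels in the 4 libraries, and no single gene is reported as changed by this test. With libraries of the same number in the file names taken as pairs, edgeR called 63 genes higher and 653 lower at an adjusted p under 0.05. Whether those numbers pair the libraries is not settled, so the unpaired test is used here. Both FA_IN libraries lay above both CA_IN libraries for 3033 genes (16.9%) and below both for 3038 genes (16.9%), and these shares are the background for the counts of genes that did not overlap. Scaling by library size alone moved that split to 2365 higher and 3593 lower, with a shift of the median of all genes from 0.01 to -0.02. Such differences were small: among the 8748 genes of at least 10 CPM, the 5th and 95th percentiles of the log2 fold change were -0.36 and 0.20. Beyond 2 on the log2 scale there were 34 genes, with a mean level of at most 15.1 CPM. In bulk RNA, fewer cells of one kind and less RNA per cell cannot be told apart.

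**Figure D1:**
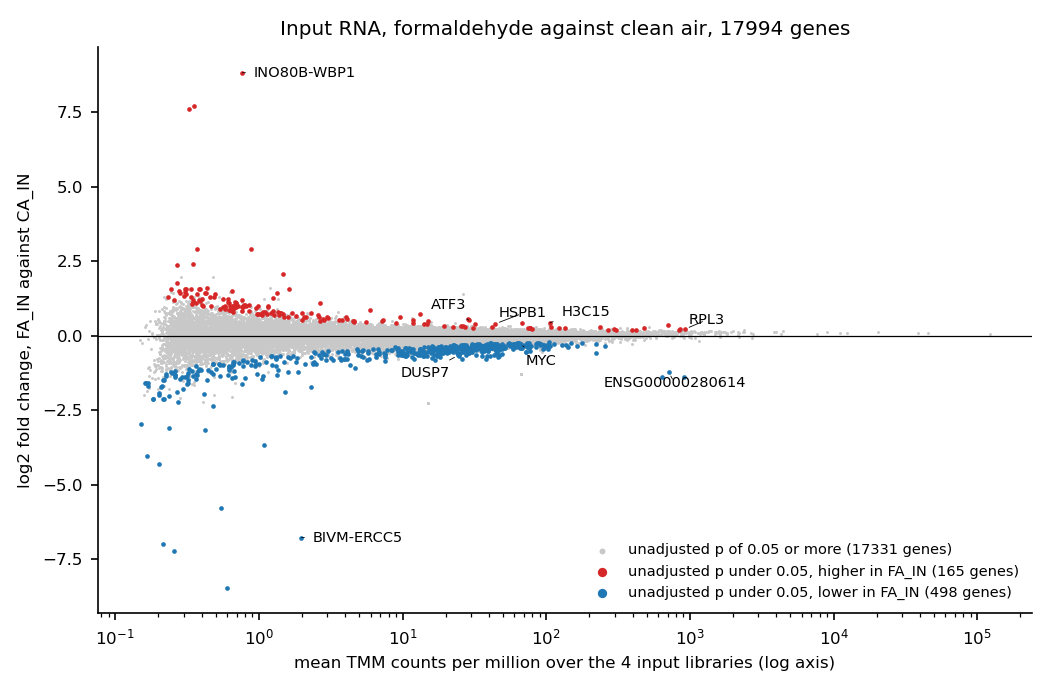
Mean level of each of the 17994 genes over the 4 input libraries (x axis, TMM CPM on a log axis) against the log2 fold change of FA_IN over CA_IN (y axis). Red and blue points are the 165 and 498 genes with an unadjusted p under 0.05, grey points are the other genes, and the 2 labelled genes farthest from 0 are readthrough genes at low levels.

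Among heat shock genes, which encode chaperones and their regulators, 6 of 26 tested members were higher in both FA_IN libraries (23.1%) and 2 were lower (7.69%). These shares stood beside 16.9% of all genes in each direction, and 3 members had an unadjusted p under 0.05. The median log2 fold change of the list was 0.06, beside 0.01 over all genes tested. HSPB1 (ENSG00000106211, chromosome 7, 76302673 to 76304295, plus strand, GRCh38), the small heat shock protein HSP27, stood at 37.2 and 39.2 CPM in CA_IN and 48.1 and 52.8 CPM in FA_IN. The groups did not overlap, and HSPB1 was 1.32-fold higher in FA_IN (log2 fold change 0.40, SE 0.11, unadjusted p = 0.00794, adjusted p = 0.960). DNAJA4, a co-chaperone of the HSP70 family (chromosome 15, 78264086 to 78282196), stood at 10.8 and 14.2 CPM in CA_IN and 17.3 and 18.1 CPM in FA_IN, a 1.41-fold difference (log2 0.50, SE 0.18, unadjusted p = 0.0252). HSPA1L, an HSP70 gene with little activity outside testis, was much lower in level, at 0.887 and 1.23 CPM in CA_IN and 1.77 and 1.67 CPM in FA_IN (unadjusted p = 0.0424).

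None of the most inducible HSP70 genes had an unadjusted p under 0.05. HSPA1A and HSPA1B are near-identical copies, so that reads are divided between them by estimation, and their summed level was 821 and 1040 CPM in CA_IN and 1007 and 1176 CPM in FA_IN. The second CA_IN library lay above the first FA_IN library in that sum. HSPA6, the strictly stress-inducible HSP70B', stood at 4.30 and 25.1 CPM in CA_IN and 32.7 and 44.1 CPM in FA_IN (log2 fold change 1.40, SE 0.66, unadjusted p = 0.0707). The groups did not overlap for HSPA6, but its CA_IN libraries lay far apart. HSPA6 was picked out after its values were seen, and the estimate depended on CA_IN replicate 2: without that library the log2 fold change was 3.14. HSPA8, a constitutive HSP70 also picked after its values were seen, stood at 2307 and 3081 CPM in CA_IN and 2359 and 3244 CPM in FA_IN. HSF2, a heat shock transcription factor, was lower, at 19.7 and 15.1 CPM in CA_IN and 13.9 and 12.5 CPM in FA_IN (unadjusted p = 0.0583).

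Heat shock factor HSF1 binds repeats of a short element in the promoters of such genes. The 250 bases before the start of HSPB1 (chr7:76302423-76302672, plus strand) and of 1 of the 3 annotated starts of DNAJA4 (chr15:78264312-78264561, plus strand) are shown from RefSeq on GRCh38.p14, because these 2 chaperone genes had the smallest p of the list. Capitals mark the element GAANNTTC, which reads the same on both strands. For DNAJA4 the window with the most copies of this element was chosen.
HSPB1: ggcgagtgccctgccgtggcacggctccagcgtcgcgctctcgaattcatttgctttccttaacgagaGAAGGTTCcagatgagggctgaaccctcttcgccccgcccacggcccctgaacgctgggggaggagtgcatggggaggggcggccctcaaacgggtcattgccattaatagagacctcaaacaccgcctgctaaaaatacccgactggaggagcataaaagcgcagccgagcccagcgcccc
DNAJA4: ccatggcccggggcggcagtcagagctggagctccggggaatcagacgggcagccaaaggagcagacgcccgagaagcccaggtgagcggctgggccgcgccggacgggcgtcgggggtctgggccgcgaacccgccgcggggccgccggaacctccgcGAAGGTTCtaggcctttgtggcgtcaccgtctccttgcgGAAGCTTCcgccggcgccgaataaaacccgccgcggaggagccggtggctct

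The element occurred once in the HSPB1 window, starting 182 bases before the start of the gene, and 2 times in the DNAJA4 window chosen for it. It was present in 5.78% of all 35116 promoter windows of this length and in at least 1 window of 7.05% of genes. Of the 26 heat shock genes tested 24 had a window, and 15 of these held the element. Both FA_IN libraries were higher for 4 of the 15 genes with the element and for 1 of the 9 without it, beside 16.9% of all genes. Whether the element had a part in these levels was not tested.

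Genes of protein quality control and acute stress were among the 12 protein-coding genes of at least 10 CPM that had the smallest p on the higher side. UBB, which encodes a polymer of ubiquitin and is a textbook stress gene, stood at 409 and 460 CPM in CA_IN and 512 and 538 CPM in FA_IN. PSMB7, a catalytic subunit of the proteasome, stood at 125 and 122 CPM in CA_IN and 147 and 148 CPM in FA_IN. In both genes the FA_IN libraries lay above the CA_IN libraries, by 1.21-fold and 1.19-fold, with unadjusted p values of 0.0213 and 0.0210. ATF3, a stress-induced transcription factor downstream of ATF4, stood at 18.96 and 28.3 CPM in CA_IN and 33.1 and 34.8 CPM in FA_IN, a log2 fold change of 0.52 (SE 0.19, unadjusted p = 0.0298). GADD45A, a growth arrest and DNA damage gene, stood at 52.3 and 64.1 CPM in CA_IN and 80.2 and 74.6 CPM in FA_IN, a log2 fold change of 0.41 (SE 0.13, unadjusted p = 0.0134).

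The other genes on that side had varied roles. They were EPPK1, an epithelial plakin that binds keratin filaments (log2 fold change 0.39), SLC25A10, a mitochondrial dicarboxylate carrier (0.29), RPL3, a protein of the large ribosomal subunit (0.23), ENSG00000256500, a protein-coding locus on chromosome 14 with no symbol of its own (0.74), SMN2 and H3C15. SMN2 and H3C15 have near-identical copies and are uncertain. SMN2, which encodes the survival motor neuron protein, had a log2 fold change of 0.53, but summed with SMN1 the level was 90.6 and 95.4 CPM in CA_IN and 88.6 and 96.2 CPM in FA_IN. H3C15, a histone H3 gene, had a log2 fold change of 0.44, but summed with H3C14 the level was 326 and 264 CPM in CA_IN and 385 and 232 CPM in FA_IN. In both sums the groups overlapped.

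**Figure D2:**
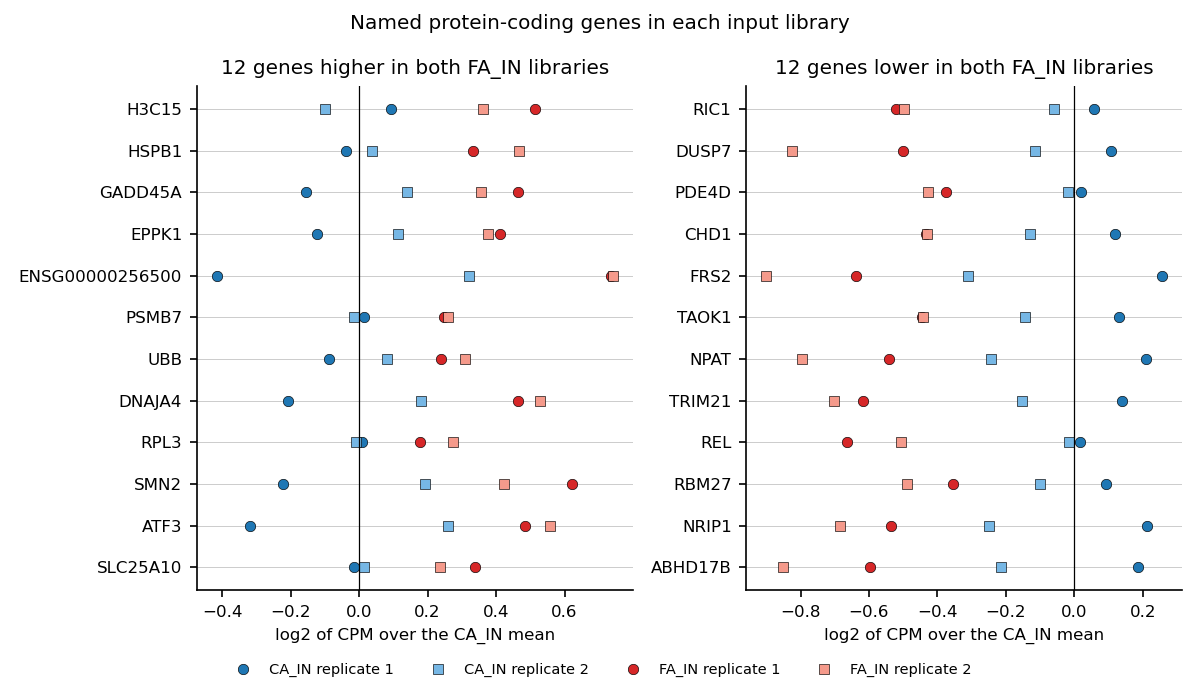
The 12 protein-coding genes with the smallest p on the higher side (left) and on the lower side (right), with the log2 ratio of CPM in each input library to the CA_IN mean on the x axis. Blue points are CA_IN and red points FA_IN, circles are replicate 1 and squares replicate 2, and the groups do not overlap because the genes were chosen so.

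The 12 genes on the lower side had varied roles, with log2 fold changes between -0.77 and -0.40 and unadjusted p values between 0.00387 and 0.00819. DUSP7, a phosphatase of the kinase ERK (chromosome 3, 52048919 to 52056571), stood at 32.1 and 27.5 CPM in CA_IN and 21.0 and 16.8 CPM in FA_IN, a log2 fold change of -0.66 (SE 0.16). FRS2, an adaptor of fibroblast growth factor receptors, stood at 56.9 and 38.4 CPM in CA_IN and 30.6 and 25.5 CPM in FA_IN, a log2 fold change of -0.77 (SE 0.20). The CA_IN libraries of FRS2 lay far apart, and without CA_IN replicate 2, the one closer to FA_IN, its log2 fold change was -1.04. CHD1, a chromatin remodeller tied to transcription elongation, stood at 129 and 109 CPM in CA_IN and 87.9 and 88.1 CPM in FA_IN, a log2 fold change of -0.43 (SE 0.11).

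The remaining genes of that side were also below in both FA_IN libraries. RIC1, part of a Golgi trafficking complex, had the smallest p, with 32.8 and 30.3 CPM in CA_IN and 22.0 and 22.3 CPM in FA_IN (log2 fold change -0.51, SE 0.12). REL, a subunit of the transcription factor NF-kappaB, stood at 14.6 and 14.3 CPM in CA_IN and 9.11 and 10.2 CPM in FA_IN (log2 fold change -0.58, SE 0.16). The others were PDE4D, a phosphodiesterase of cyclic AMP (-0.40), TAOK1, a stress-responsive kinase (-0.44), NPAT, a coactivator of histone genes (-0.67), TRIM21, a ubiquitin ligase and antibody receptor (-0.66), RBM27, an RNA-binding protein (-0.42), NRIP1, a corepressor of nuclear receptors (-0.61), and ABHD17B, a depalmitoylase (-0.72).

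Immediate early genes, the first transcripts made after a growth or stress signal, lay on both sides. Their log2 fold change was above 0 for 13 genes and below 0 for 15. Of 28 tested, 1 was higher in both FA_IN libraries (3.57%) and 8 were lower (28.6%), beside 16.9% of all genes, and 5 had an unadjusted p under 0.05, all lower. MYC, the growth transcription factor, stood at 73.7 and 79.8 CPM in CA_IN and 60.9 and 60.3 CPM in FA_IN (log2 fold change -0.34, SE 0.10, unadjusted p = 0.0100). The MAP kinase phosphatase DUSP1 stood at 73.8 and 73.1 CPM in CA_IN and 61.8 and 53.1 CPM in FA_IN (log2 fold change -0.36, SE 0.11), and the related DUSP5 at 52.1 and 50.5 CPM in CA_IN and 42.3 and 37.7 CPM in FA_IN (log2 fold change -0.36, SE 0.11). MCL1, a short-lived survival protein, had a log2 fold change of -0.34 and DUSP6 of -0.22. The median of the list was -0.05, and without CA_IN replicate 2 it was 0.10. EGR2, the 1 gene higher in both FA_IN libraries, stood at 0.627 and 0.705 CPM in CA_IN and 1.10 and 1.04 CPM in FA_IN (log2 fold change 0.68, SE 0.30). EGR2, FOSB, FOS and EGR1 were added after their values were seen, and FOSB, FOS and EGR1 overlapped between the groups. FOSB had a log2 fold change of 0.58 (SE 0.31). FOS was at 23.9 and 40.6 CPM in CA_IN and 37.5 and 42.0 CPM in FA_IN, and EGR1 at 27.4 and 41.2 CPM in CA_IN and 32.7 and 35.2 CPM in FA_IN.

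In the integrated stress response list, which holds ATF4 and genes it activates, 10 of 30 tested members were higher in both FA_IN libraries (33.3%). The number lower in both was 3 (10.0%), beside 16.9% of all genes in each direction, and the median log2 fold change was 0.03. Beside ATF3, DDIT3, which encodes CHOP, stood at 15.2 and 18.1 CPM in CA_IN and 19.2 and 21.4 CPM in FA_IN (log2 fold change 0.29, SE 0.15). ATF4 itself stood at 215 and 268 CPM in CA_IN and 279 in each FA_IN library (log2 fold change 0.21, SE 0.12). DDIT4, an inhibitor of the growth kinase mTORC1, was on the other side, at 95.7 and 86.9 CPM in CA_IN and 74.2 and 53.8 CPM in FA_IN (log2 fold change -0.51, SE 0.16, unadjusted p = 0.0140). TRIB3 was also lower, at -0.23. Members of the list thus lay on both sides. Of 29 unfolded protein response genes 2 were higher (6.9%) and 7 lower (24.1%), with a median log2 fold change of -0.004. Among them EIF2AK3, the sensor kinase PERK, was at -0.33 with an unadjusted p of 0.0719.

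SESN1, a sestrin that restrains mTORC1, stood at 13.9 and 9.48 CPM in CA_IN and 8.44 and 7.43 CPM in FA_IN (log2 fold change -0.57, SE 0.22, unadjusted p = 0.0386). CDKN1A, the cell cycle inhibitor p21, stood at 117 and 111 CPM in CA_IN and 105 and 100.3 CPM in FA_IN, a log2 fold change of -0.15 (SE 0.09, unadjusted p = 0.143). Both genes were lower in both FA_IN libraries.

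The 29 tested chromatin and related genes that the study discussed were chosen by the study on these samples, so their direction is not independent evidence. Of these 5 were higher in both FA_IN libraries (17.2%) and 10 were lower (34.5%), beside 16.9% of all genes in each direction. The median log2 fold change was 0.03. KDM5B, a histone H3 lysine 4 demethylase, stood at 77.1 and 66.8 CPM in CA_IN and 60.2 and 52.99 CPM in FA_IN (log2 fold change -0.35, SE 0.12). KAT6A, a histone acetyltransferase, was at -0.37 (SE 0.13) and SETD2, a histone H3 lysine 36 methyltransferase, at -0.27 (SE 0.10), with unadjusted p values of 0.0268 and 0.0323. Summed over isoforms, several genes of that list differed little. KAT5, an acetyltransferase of the DNA damage response, stood at 11.9 and 12.3 CPM in CA_IN and 13.4 and 12.2 CPM in FA_IN. KMT2C, a histone methyltransferase, had a log2 fold change of 0.15 (SE 0.11), ACTB, beta-actin, of 0.14 (SE 0.07) and BRCA1, a DNA repair protein, of 0.05 (SE 0.13).

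Among 25 enzymes that clear formaldehyde or carry one-carbon units, 4 were higher in both FA_IN libraries (16.0%, beside 16.9% of all genes) and 0 were lower, with a median log2 fold change of 0.10. Against the CA_IN mean the median was 0.02 in FA_IN replicate 1 and 0.13 in FA_IN replicate 2, and between libraries of 1 treatment it was 0.09 in CA_IN and 0.15 in FA_IN. None of the 25 had an unadjusted p under 0.05 in edgeR. ADH5 stood at 168 and 190 CPM in CA_IN and 176 and 202 CPM in FA_IN (log2 fold change 0.08, SE 0.11), and ESD at 87.9 and 104 CPM in CA_IN and 99.5 and 110 CPM in FA_IN (log2 fold change 0.13, SE 0.12). In both genes the spread within a group was as large as the step between groups. The mitochondrial aldehyde dehydrogenase ALDH2 was at -0.06 (SE 0.18). MTHFD1, which had the smallest p in the list, stood at 113 and 118 CPM in CA_IN and 121 and 137 CPM in FA_IN (log2 fold change 0.16, SE 0.10, unadjusted p = 0.151).

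Lists of oxidative defence and DNA repair stood near the background of 16.9% of all genes in each direction. Of 30 NRF2 target genes 6 were higher and 4 lower in both FA_IN libraries, with a median of 0.08. HMOX1, heme oxygenase, stood at 21.6 and 27.4 CPM in CA_IN and 22.9 and 25.3 CPM in FA_IN (log2 fold change -0.02, SE 0.16). The pentose phosphate enzymes PGD and TKT were at 0.18 (SE 0.09) and 0.16 (SE 0.08). Of 36 crosslink repair genes 4 were higher (11.1%) and 5 lower (13.9%), with a median of -0.01. REV1, a translesion DNA polymerase, was at -0.37 (SE 0.14, unadjusted p = 0.0315). Among 23 NF-kappaB genes 1 was higher (4.35%) and 4 were lower (17.4%), with a median of 0.01. Of 33 interferon-stimulated genes 7 were higher (21.2%) and 2 lower (6.06%), with a median of 0.03. IRF1, a transcription factor, was lower at 43.7 and 43.7 CPM in CA_IN and 35.2 and 33.9 CPM in FA_IN (log2 fold change -0.34, SE 0.11, unadjusted p = 0.0147). Of 45 DNA replication and mitosis genes 13 were higher (28.9%) and 3 lower (6.67%), with a median of 0.03. UBE2C, a ubiquitin-conjugating enzyme of mitotic exit, was at 0.24 (SE 0.10).

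Ribosomal protein genes were the list with the most uniform direction. Both FA_IN libraries were higher for 39 of 50 genes of the large subunit and 28 of 32 of the small subunit, beside 16.9% of all genes, and 1 gene, RPL7L1, was lower. RPL7L1 is a ribosomal protein paralog rather than a core subunit. The median log2 fold change was 0.12 in each subunit list, and the genes lay between -0.07 and 0.31. RPL3 stood at 861 and 850 CPM in CA_IN and 969 and 1035 CPM in FA_IN (log2 fold change 0.23, SE 0.08, unadjusted p = 0.0257), and RPS2 at 829 and 755 CPM in CA_IN and 951 and 903 CPM in FA_IN (log2 fold change 0.23, SE 0.09, unadjusted p = 0.0345). These genes took 6.61% and 6.67% of all counts in CA_IN and 6.98% and 7.17% in FA_IN. Many ribosomal protein genes have processed pseudogenes of near-identical sequence, and RPS2P5, a pseudogene of RPS2, had a log2 fold change of 0.28.

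Zinc finger genes named ZNF, many of which encode KRAB repressors of transposable elements, were the largest list on the lower side. Of 523 tested, 170 were lower in both FA_IN libraries (32.5%, beside 16.9% of all genes) and 18 were higher, 49 had an unadjusted p under 0.05 on the lower side and 1 on the higher side, and the median log2 fold change was -0.26. ZNF284 (chromosome 19, 44072159 to 44089613) stood at 5.67 and 4.68 CPM in CA_IN and 3.10 and 2.90 CPM in FA_IN (log2 fold change -0.79, SE 0.20). ZNF71 was at -0.78 (SE 0.23) and ZNF182 at -0.67 (SE 0.20). The list also differed between libraries of the same treatment. The median log2 ratio of replicate 2 to replicate 1 was -0.37 in CA_IN and -0.23 in FA_IN, so replicate 2 was lower in both groups. The step within clean air was larger than the step between treatments. Without CA_IN replicate 1 the median log2 fold change of the list was -0.07, and without CA_IN replicate 2 it was -0.45. Chromosome 19 held 250 of the genes, with a median log2 fold change of -0.32, and the 899 other genes tested on chromosome 19 had a median of 0.07. The 273 ZNF genes elsewhere had a median of -0.19.

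**Figure D3:**
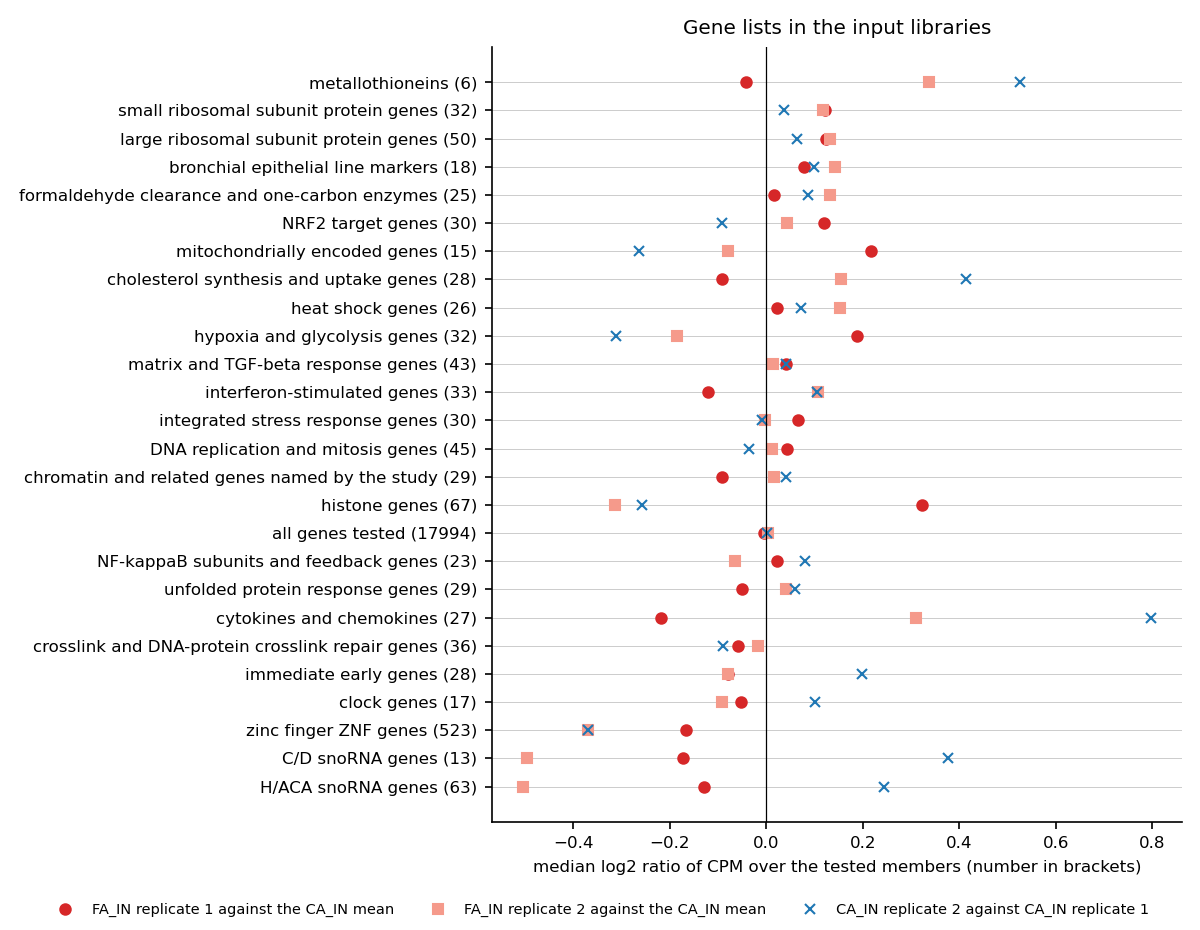
Median log2 ratio of CPM over the tested members of each gene list (x axis), for FA_IN replicate 1 (red circles) and FA_IN replicate 2 (light red squares) against the CA_IN mean, and for CA_IN replicate 2 against CA_IN replicate 1 (blue crosses). The lists are ordered by the fitted median log2 fold change. All 3 marks lie above 0 for the 2 ribosomal lists and for the heat shock, formaldehyde clearance, epithelial line marker and matrix lists. All 3 lie below 0 for the ZNF and crosslink repair lists.

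Some lists moved with the library more than with the treatment. For 27 cytokines and chemokines the median log2 ratio was 0.80 between the 2 CA_IN libraries and 0.57 between the 2 FA_IN libraries, and the median log2 fold change between treatments was -0.01. CXCL8, the neutrophil attractant interleukin 8, stood at 6.01 and 20.8 CPM in CA_IN and 11.6 and 21.3 CPM in FA_IN. For 28 cholesterol genes these medians were 0.41 and 0.31 between libraries and 0.06 between treatments, and for 6 metallothioneins, which bind zinc and copper, they were 0.53 and 0.32 between libraries and 0.15 between treatments. For 32 hypoxia and glycolysis genes they were -0.31 and -0.37 between libraries and 0.04 between treatments. In these 4 lists replicate 2 differed from replicate 1 in the same direction in clean air and in formaldehyde.

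Of 43 matrix and TGF-beta response genes 7 were higher and 7 lower (16.3% each, beside 16.9% of all genes), with a median of 0.03. Of 17 clock genes 2 were higher and 2 lower (11.8% each), with a median of -0.09. Of 67 histone genes 3 were higher (4.48%) and 4 lower (5.97%), with a median of 0.02. Against the CA_IN mean, FA_IN replicate 1 was at 0.32 and FA_IN replicate 2 at -0.31 for these histone genes. None of the 15 tested mitochondrially encoded genes separated the groups in either direction, and their median was 0.07. Of the 18 epithelial line markers 7 were higher in both FA_IN libraries (38.9%, beside 16.9% of all genes) and 0 lower, with a median of 0.10. Their median effective length was 1312 bases. Of protein-coding genes of 978 to 1400 bases and at least 10 CPM, 30.4% were higher in both FA_IN libraries. In the pull-down 3 of the 18 markers were higher in both formaldehyde libraries. KRT18, a keratin of simple epithelium, stood at 597 and 642 CPM in CA_IN and 687 and 700.1 CPM in FA_IN (log2 fold change 0.16, SE 0.08).

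The snoRNA lists had medians below 0, with uneven replicates. All short noncoding genes together took 12.3% and 13.01% of counts in CA_IN and 14.4% and 11.8% in FA_IN, so the groups overlapped for the class. Of 213 H/ACA snoRNA genes, which guide pseudouridylation of RNA, 63 were tested. Their median effective length was 1.4 bases, so their levels are uncertain. Both FA_IN libraries were lower for 28 of these (44.4%, beside 16.9% of all genes) and higher for 2 (3.17%). The median log2 fold change was -0.35. FA_IN replicate 1 was at -0.13 and FA_IN replicate 2 at -0.50 against the CA_IN mean. SNORA63, which lies within EIF4A2 on chromosome 3, stood at 19.6 and 21.8 CPM in CA_IN and 15.4 and 12.7 CPM in FA_IN (log2 fold change -0.56, SE 0.16). Of 314 C/D snoRNA genes, which guide 2'-O-methylation, 13 were tested, with a median effective length of 3.0 bases. Of these 4 were lower (30.8%) and 1 higher (7.69%), with a median of -0.27. RNVU1-18, a variant of the U1 spliceosomal RNA with near-identical copies, was at -0.65 (SE 0.16). With the trend on effective length removed, an alternative described below, the snoRNA medians were -0.06 and -0.04, and without CA_IN replicate 2 the C/D median was 0.07.

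The highest-level noncoding IDs on the lower side lay in ribosomal DNA. ENSG00000280614 (chromosome 21, 8393419 to 8394341, minus strand) stood at 871 and 1128 CPM in CA_IN and 544 and 309 CPM in FA_IN, with a log2 fold change of -1.23 (SE 0.25, unadjusted p = 0.00189). ENSG00000280800 (chromosome 21, 8210384 to 8211306) and ENSG00000281181 (chromosome 21, 8437629 to 8438551) were at -1.38 and -1.37. All 3 lie inside the 45S ribosomal RNA units that RefSeq places at 8389035 to 8402343, 8205988 to 8219302 and 8433222 to 8446572, and they are near-identical copies, so that their counts cannot be told apart from each other or from rRNA left after depletion. Together they held 2848 and 3638 CPM in CA_IN and 1786 and 794 CPM in FA_IN, with both FA_IN libraries below both CA_IN libraries. Without CA_IN replicate 1, ENSG00000280614 had a log2 fold change of -1.42.

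On the higher side, ENSG00000265401 (chromosome 17, 16382152 to 16382669, minus strand) stood at 21.4 and 25.1 CPM in CA_IN and 33.0 and 34.7 CPM in FA_IN, with a log2 fold change of 0.54 (SE 0.13, unadjusted p = 0.00411). It lies within UBB on the opposite strand, and the counting command given by the study holds no strand option, so its reads cannot be told apart from those of UBB. ENSG00000259001 on chromosome 14, at 0.29 (SE 0.11), overlaps RPPH1, the RNA of ribonuclease P, and the pseudogene RPL41P2, at 0.30 (SE 0.13), lies within HERC2. ENSG00000274276, at 0.43 (SE 0.17), carries the biotype artifact in GENCODE.

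The 2 smallest p values of the whole comparison belonged to readthrough genes, which join the exons of neighbouring genes and share almost all their sequence with them. The readthrough genes described here were chosen after their values were seen. BIVM-ERCC5 (chromosome 13, 102799110 to 102875994) had an expected count of 204.5 in CA_IN replicate 1 and 130.3 in CA_IN replicate 2. In FA_IN it had 1.64 and 0, and it was at least 39.2-fold lower against a floor of 3 counts per library (unadjusted p = 9.60e-06, adjusted p = 0.173). DESeq2 called it with an adjusted p of 5.18e-06, and edgeR on all 8 libraries with an adjusted p of 0.0323. In the pull-down from portions of the same RNA it stood at 2.96 and 3.02 CPM in CA_IP and 3.75 and 2.31 CPM in FA_IP (log2 fold change 0.01, SE 0.30), so that it was present in both FA_IP libraries and the groups overlapped. The 2 genes it spans did not separate. ERCC5, a nuclease of nucleotide excision repair, stood at 37.8 and 33.3 CPM in CA_IN and 33.9 and 34.6 CPM in FA_IN, and BIVM at 8.77 and 11.0 CPM in CA_IN and 9.94 and 11.6 CPM in FA_IN. The summed locus stood at 50.9 and 47.7 CPM in CA_IN and 43.9 and 46.2 CPM in FA_IN, a log2 ratio of -0.13.

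INO80B-WBP1 (chromosome 2, 74455088 to 74460884) went the other way, with no count in either CA_IN library and expected counts of 38.0 and 58.4 in the FA_IN libraries, at least 21.6-fold higher against the same floor (adjusted p = 0.197). In the pull-down it stood at 2.25 and 0 CPM in CA_IP and 1.76 and 0 CPM in FA_IP, so that it was found in clean-air RNA there and the groups overlapped. The summed locus stood at 25.0 and 24.1 CPM in CA_IN and 27.3 and 24.9 CPM in FA_IN (log2 ratio 0.09), so that the groups overlapped in the sum. P3R3URF-PIK3R3 was at least 10.7-fold lower and ABHD14A-ACY1 had a log2 fold change of 1.58, while their summed loci had log2 ratios of -0.16 and 0.14. In these 4 loci the sum differed far less than the reads assigned to the readthrough gene. Without CA_IN replicate 2, P3R3URF-PIK3R3 had a log2 fold change of -6.20 and BIVM-ERCC5 of -6.96, with FA_IN counts near 0 in both. RSEM assigns such reads by estimation, so that these 4 results are uncertain at the gene level.

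**Figure D4:**
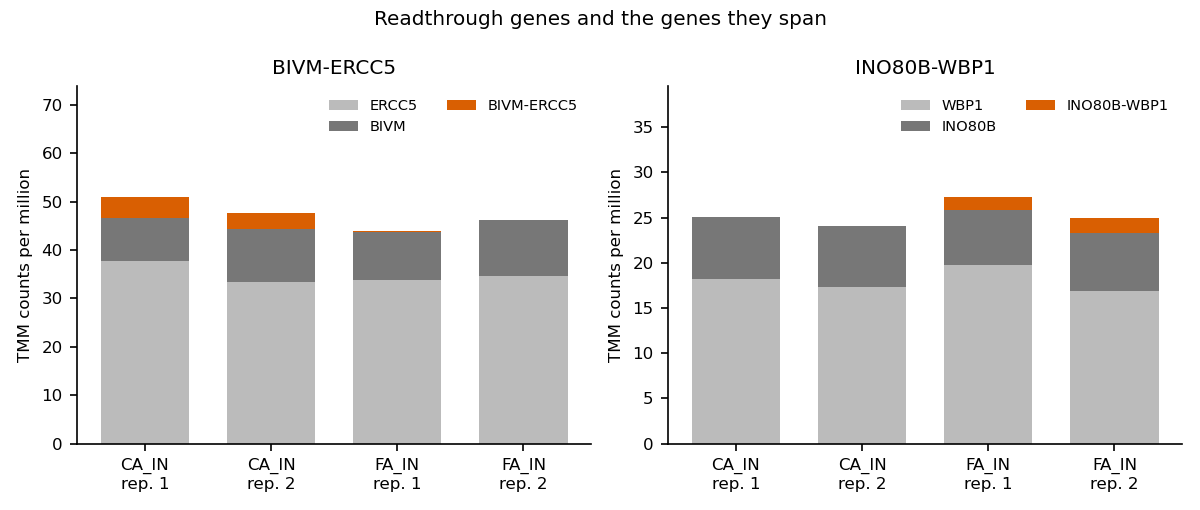
Stacked TMM CPM (y axis) of the readthrough gene (orange) and the 2 genes it spans (greys) in each input library, for BIVM-ERCC5 (left) and INO80B-WBP1 (right). The orange part is nearly absent in FA_IN on the left and absent in CA_IN on the right, while the total bars lie between 43.9 and 50.9 CPM and between 24.1 and 27.3 CPM.

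The direction of a gene moved with its length. Among the 8501 protein-coding genes of at least 10 CPM, Spearman's rho across genes was -0.37 between the log2 fold change and the effective length, and 0.26 between the log2 fold change and the GC content of the main isoform over the 8341 genes with a value. These are descriptions, since genes of the same libraries are not independent. In the shortest eighth of genes, 46.4% were higher in both FA_IN libraries and 2.07% were lower, and in the longest eighth 5.93% were higher and 29.9% lower. The median log2 fold change went from 0.11 to -0.06 over the same range, and median effective lengths from 698.5 to 5305 bases. The 1545 genes that were higher in both FA_IN libraries had a median effective length of 1334 bases and 52.7% GC, and the 1429 that were lower had 2920 bases and 43.3% GC.

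Ribosomal protein genes and ZNF genes were set beside this trend. The shortest eighth spanned 22.7 to 978 bases with a median of 698.5. The ribosomal protein genes tested had a median of 421.7 bases, so they were not matched in length to the others there. In the shortest eighth, 82.3% of 79 ribosomal protein genes were higher in both FA_IN libraries, beside 43.5% of the 984 other genes, although the medians of 0.12 and 0.10 were close. In the longest eighth, 45.5% of 33 ZNF genes were lower, beside 29.4% of the 1030 others, with medians of -0.33 and -0.06. For these ZNF genes the median log2 ratio of FA_IN replicate 1 to CA_IN replicate 1 was -0.41, beside -0.11 for the others. The ratio of FA_IN replicate 2 to CA_IN replicate 2 was -0.14, beside -0.03 for the others. With the length trend removed, the median was 0.07 for ribosomal protein genes and -0.25 for ZNF genes, beside 0.02 over all genes. HSPB1 was then at 0.34, ATF3 at 0.49, GADD45A at 0.37, MYC at -0.34 and DUSP7 at -0.62. The part of length and GC content in the results above was not tested.

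**Figure D5:**
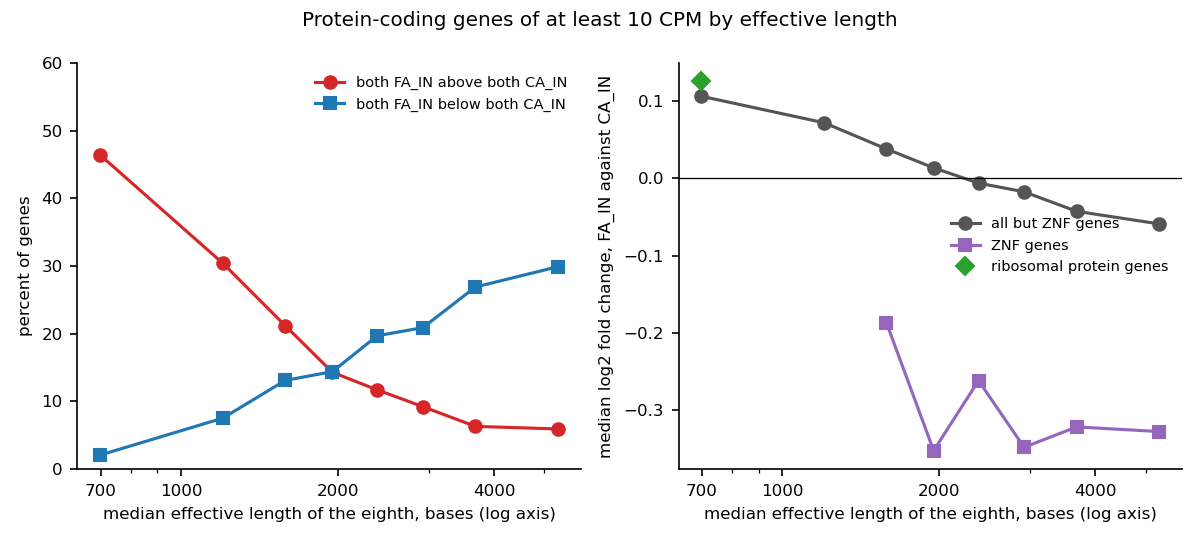
The 8501 protein-coding genes of at least 10 CPM in eighths of effective length, with the median length of each eighth in bases on a log x axis. Left, the percent of genes with both FA_IN libraries above (red) or below (blue) both CA_IN libraries, which are 14.3% and 14.4% in the fourth eighth. Right, the median log2 fold change of ZNF genes (purple), all but ZNF genes (grey) and ribosomal protein genes (green) in eighths with at least 20 of them.

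The pull-down libraries were made from portions of the same RNA, so they measure the same cultures again and are no further replicates. Over the same genes, both FA_IP libraries lay above both CA_IP libraries for 17.0% and below them for 16.3%. Of the 12 named genes on the higher side 10 did not overlap in the same direction in the pull-down, and of the 12 on the lower side 9. GADD45A stood at 67.3 and 80.4 CPM in CA_IP and 100.8 and 94.4 CPM in FA_IP, and MYC at 93.9 and 95.9 CPM in CA_IP and 66.2 and 70.7 CPM in FA_IP. H/ACA snoRNA genes did not keep their side, with a median log2 fold change of 0.12 in the pull-down. The filter used the input libraries alone, and SNORA63 stood at only 0.97 and 1.89 CPM in CA_IP, so this median is uncertain. Of 30 integrated stress response genes 5 were higher and 7 lower in both FA_IP libraries, with a median of -0.01. The ZNF median was -0.26 in both fractions, but 110 of 523 genes were lower in both FA_IP libraries, beside 170 in the input. Of 82 ribosomal protein genes 30 were higher there, beside 67 in the input.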

How the data were processed

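RNA from BEAS-2B cultures was depleted of ribosomal RNA, made into libraries and read as paired ends by the authors. Their processing trimmed reads with cutadapt, aligned them with STAR 2.6.0a to GRCh38 and estimated isoform levels with RSEM 1.2.25. The deposited files hold an expected count per isoform, estimated by the authors and not normalized, with TPM and effective length from the authors, of which TPM was not used in any test. The authors' comparison tables of log2 fold changes and p-values were not used. The RSEM command given by the study holds no strand option, so reads were counted without regard to strand. File names number the replicates 1 and 3, and they are called 1 and 2 here.

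Expected counts were summed by gene, rounded, filtered (at least 10 in at least 2 libraries) and scaled by TMM. FA_IN and CA_IN were compared with edgeR 4.0.16 quasi-likelihood tests with Benjamini-Hochberg adjustment over 17994 genes, in R 4.3.3. DESeq2 1.42.0 was an alternative. Unadjusted p values come from this edgeR fit unless DESeq2 is named, and fold changes use a prior count of 0.125. Of 58735 gene IDs 58207 matched GENCODE 44, which gave symbols, positions and biotypes. Alternatives changed the scaling, filter, tool, samples, prior count, length offset and each left-out library. Input libraries held 26152651 to 45144392 counts, and the floor of 3 counts covers counting error only.

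The named genes were the 12 protein-coding genes of at least 10 CPM with non-overlapping groups and the smallest p in each direction, 5 of other biotypes in each direction, at most 4 per list, and 11 genes named whatever their values. Some of these results are not reported here. HSPA6, HSPA8, EGR2, FOSB, FOS, EGR1, ATF4, CXCL8, DUSP6, RPL7L1, TUBA1A and the readthrough genes fell outside this rule and were picked after their values were seen. Members and lists were chosen with earlier results of these data known.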

Additional observations from a re-analysis of the deposited data

How the results depend on the processing

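With 2 libraries per group, 1 library can decide an estimate. Without a filter on low counts edgeR called 23 genes higher and 78 lower (15 and 27 beyond 2 on the log2 scale) and the groups did not overlap for 4658 higher and 5081 lower genes. With a mean count of at least 50, 1926 genes were higher without overlap. DESeq2 called 1 higher and 2 lower, all beyond 2, and a fit on all 8 libraries called 1 lower, beyond -2. Leaving out each library in turn called 0 to 6 genes higher and 0 to 12 lower (0 to 6 and 0 to 7 beyond 2), with 4989 to 6548 genes higher and 5568 to 6474 lower without overlap. GEO's labels give no replicate numbers. With the number in the file names as a replicate block, 63 genes were called higher and 653 lower (8 and 12 beyond 2), the difference between the replicates in FA_IN correlated with that in CA_IN at 0.532 over 8748 genes, and 49 of 69 named genes were called. The study lists exposures on several dates, but the sources used here tie no library to a date, so whether the numbers pair the libraries is not settled. With effective lengths as an offset the log2 fold change turned to 0.054 for ALDH2, 0.0453 for HMOX1 and -0.0654 for KMT2C. Leaving out a library gave ADH5 -0.0195 to 0.17, ALDH2 -0.22 to 0.0924, HMOX1 -0.19 to 0.14 and BRCA1 -0.13 to 0.20. The causes were not tested. Removing a trend on effective length was chosen after seeing the data and called 0 genes by edgeR, with 158 higher and 397 lower at an unadjusted p under 0.05.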
